A study of Mus musculus with 12 samples.

Results

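The serum amyloid and pentraxin genes were described in livers of germ-free mice, animals raised without a microbiota, after injection of growth hormone (GH) or of phosphate-buffered saline (PBS). The 6 genes were the rows of the deposited count table with the symbols Saa1, Saa2, Saa3, Saa4, Apcs and Crp, 6 of the 38087 genes in the table, and all 6 passed the filter on low counts that left 14235 genes for testing. All animals were male C57BL/6j mice, germ-free and 13 to 16 weeks old. The GH group (6 libraries) received recombinant human GH, 50 µg per mouse, under the skin at zeitgeber times (ZT, hours after lights on) 2 and 14 on 5 days. The PBS group (6 libraries) received PBS on the same schedule, and all livers carry the label ZT02. Human GH is a foreign protein to the mouse and is known to bind the prolactin receptor as well as the GH receptor, which limits the group as a model of the mouse's own hormone. Samples are numbered within each group, with nothing said of the animals or cages behind the numbers, so p-values measure only the spread between these samples, which may be in part technical.

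Serum amyloid A proteins are small apolipoproteins that the liver secretes and that travel on high-density lipoprotein (HDL). In an acute phase response, cytokines such as interleukin-6 (IL-6), interleukin-1 (IL-1) and tumour necrosis factor act on hepatocytes through STAT3, C/EBP and NF-kB factors, and transcription of Saa1 and Saa2 increases strongly. Pentraxins are ring-shaped proteins of the innate immune system that bind microbial and damaged-cell surfaces, and in the mouse serum amyloid P (Apcs) is the classical acute phase pentraxin while C-reactive protein (Crp) responds weakly.

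In the GH livers Saa1, Saa2, Saa4 and Apcs were higher than in the PBS livers and Crp was not detectably different. The fitted folds were 14.7 for Saa1, 33.6 for Saa2, 2.68 for Saa4 and 2.79 for Apcs. Of the 6 genes 4 passed an adjusted p of 0.05, all higher in GH, where 4.79% of all genes tested passed in either direction and 2.27% passed as higher. For 5 of the 6 genes, Saa1 to Saa4 and Apcs, no GH library overlapped a PBS library in counts-per-million (CPM, scaled by TMM), against 3.18% of all genes tested. One library stood apart: GH replicate 6 was 3.69 times the next highest library for Saa1, 9.23 times for Saa2 and 8.05 times for Saa3, and the results for the 6 genes that it touches are given with and without it. Without GH replicate 6, 5 of the 6 genes passed, Saa3 being the addition, where 5.56% of all genes passed.

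The 12 libraries held 19523104 to 23278931 counts of exonic reads. Liver is a mixture of cells, and in bulk tissue fewer cells of a type and less RNA per cell cannot be told apart. Hepatocyte markers made up a summed 92416 to 110467 CPM in PBS and 73468 to 98063 CPM in GH, with the lowest value in GH replicate 6. Most of the sum was Alb, at a mean of 74870 CPM in PBS and 50203 CPM in GH replicate 6. In that library Alb, Ttr, Apoa1 and Tat were below their GH means, and Cps1 and Serpina1a were above theirs. Of the 6 hepatocyte markers, Alb, Ttr and Serpina1a are also on the acute phase list described further on. Of 44 tested markers on 10 cell type lists, 0 passed as higher and 1 as lower in GH by edgeR's test, the stellate cell gene Dcn at -0.38 on the log2 scale (adjusted p = 0.00296). At an unadjusted p of 0.05, 11 of the 44 passed, a cut for which the share of all genes was not counted. DESeq2 called 1 higher, the cholangiocyte gene Sox9, and 3 lower, the hepatocyte genes Alb and Cps1 and again Dcn. Among 14668 genes it called 506 higher and 551 lower. By edgeR's test Alb (-0.26; adjusted p = 0.108) and Cps1 (-0.22; adjusted p = 0.0909) did not pass. With GH replicate 6 left out, 1 marker passed as higher and 2 as lower: the sinusoidal endothelium genes Stab2 (0.34; adjusted p = 0.0387) and Lyve1 (-0.75; adjusted p = 0.00155), and Dcn. Endothelial markers summed to 376 to 486 CPM in PBS, 387 to 475 CPM in GH and 387 CPM in GH replicate 6, and the part of these cells in the results was not tested. Every marker in the table had counts in at least 1 library.

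Saa1, Saa2, Saa3 and Saa4 lie next to each other on mouse chromosome 7 and Apcs and Crp lie close together on chromosome 1 (mm10, GENCODE M21). Saa3 (ENSMUSG00000040026) spans chr7:46711998-46715700, Saa4 (ENSMUSG00000040017) chr7:46727998-46732603 and Saa1 (ENSMUSG00000074115) chr7:46740497-46742980, all on the minus strand. Saa2 (ENSMUSG00000057465) spans chr7:46751790-46754313 on the plus strand. Crp (ENSMUSG00000037942) spans chr1:172698055-172833031 on the plus strand and Apcs (ENSMUSG00000026542) chr1:172893961-172895041 on the minus strand. No exon of another gene in the annotation overlaps an exon of these genes.

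The sequences before the start sites of Saa1 and Saa2 are shown because both genes rose together and are near copies of each other. The windows of 300 bases around their starts (250 before, 50 after) were 95.3% identical over 301 aligned columns, with 12 substitutions and 2 gap columns, while every other pair among the 6 genes was 42.7 to 50.1% identical. Below are the 250 bases before each start, 5′ to 3′ on the gene's strand (RefSeq, GRCm38.p6), with the bases that differ between Saa1 and Saa2 in capitals. The first is chr7:46742981-46743230 on the minus strand and the second chr7:46751583-46751832 on the plus strand. The starts of RefSeq and GENCODE M21 differ for some of the genes. For Saa2 the window reaches into the GENCODE span given above, which begins at chr7:46751790.
Saa1: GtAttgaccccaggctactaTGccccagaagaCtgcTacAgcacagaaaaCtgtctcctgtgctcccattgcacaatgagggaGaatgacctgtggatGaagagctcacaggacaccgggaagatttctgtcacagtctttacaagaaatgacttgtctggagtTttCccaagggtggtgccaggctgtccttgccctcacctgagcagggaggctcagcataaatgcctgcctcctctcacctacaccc
Saa2: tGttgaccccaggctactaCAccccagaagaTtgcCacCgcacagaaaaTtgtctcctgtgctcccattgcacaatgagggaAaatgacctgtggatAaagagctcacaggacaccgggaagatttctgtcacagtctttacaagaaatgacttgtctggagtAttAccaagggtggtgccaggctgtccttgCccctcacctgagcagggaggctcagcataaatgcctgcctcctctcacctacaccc
Most of the differing bases lay far from the start. Within the 300-base windows, the first 100 bases held 10 of the 13 capitals of Saa1 and 9 of the 13 of Saa2.

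Saa4, Apcs and Crp are shown for contrast, since Saa4 and Apcs rose by less and Crp was not detectably different. Their 250 bases before the start are chr7:46732604-46732853 (minus strand), chr1:172895055-172895304 (minus strand) and chr1:172697806-172698055 (plus strand). Capitals mark matches to the motifs described next.
Saa4: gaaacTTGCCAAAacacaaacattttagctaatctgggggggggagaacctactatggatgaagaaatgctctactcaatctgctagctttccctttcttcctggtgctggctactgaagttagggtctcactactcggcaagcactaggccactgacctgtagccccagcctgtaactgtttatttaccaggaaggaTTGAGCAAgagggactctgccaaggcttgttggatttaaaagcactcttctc
Apcs: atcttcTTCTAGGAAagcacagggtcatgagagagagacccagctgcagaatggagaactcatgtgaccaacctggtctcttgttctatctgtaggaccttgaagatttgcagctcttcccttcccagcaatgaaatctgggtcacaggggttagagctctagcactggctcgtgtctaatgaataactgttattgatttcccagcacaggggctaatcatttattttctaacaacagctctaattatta
Crp: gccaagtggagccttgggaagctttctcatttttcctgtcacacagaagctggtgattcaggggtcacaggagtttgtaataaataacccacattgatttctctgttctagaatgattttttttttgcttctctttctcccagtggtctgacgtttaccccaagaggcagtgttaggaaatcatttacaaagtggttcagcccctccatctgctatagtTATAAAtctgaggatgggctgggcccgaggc
The 300-base windows of 32851 RefSeq promoters were searched for 4 patterns that do not overlap one another in these 6 windows. The C/EBP core TTGCNNAA, on both strands, was in 10.8% of all windows and in those of Saa1, Saa2, Saa3 and Saa4. Saa1 had TTGCACAA from -182 to -175 and Saa2 had the same letters from -183 to -176, counted from the RefSeq start site. Saa3 had TTATGCAA from -99 to -92, and Saa4 had TTGCCAAA from -245 to -238 and TTGAGCAA from -52 to -45. The STAT pattern TTCNNNGAA, which reads alike on both strands, was in 8.3% of all windows and, among the 6, in that of Apcs as TTCTAGGAA from -244 to -236. The TATA core TATAAA, searched on the gene's strand, was in 8.32% of all windows and in that of Crp, from -31 to -26. The kappaB consensus, searched by name on both strands, was in 8.46% of all windows and in 0 of the 6. These are matches of letters in a short window and show no binding.

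Saa1 and Saa2 encode the acute phase serum amyloids. Saa1 ranged from 19.3 through a median of 79.2 to 129 CPM in PBS and from 591 through 772 to 3056 CPM in GH. The lowest GH library stood well above the highest PBS library. PBS replicate 6 was the lowest library and GH replicate 6 the highest, and the other 5 GH libraries lay between 591 and 828 CPM. The group means were 76.8 ± 40.9 and 1128 ± 948 CPM (SD, n = 6 each), a log2 fold change of 3.88 ± 0.60 (SE; edgeR adjusted p = 0.00573; 95% interval 2.55 to 5.20). Without GH replicate 6 the log2 fold change was 3.27 ± 0.43 (adjusted p = 0.00256), a fold of 9.65.

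Saa2 ranged from 7.86 through a median of 22.3 to 38.1 CPM in PBS and from 220 through 297 to 3125 CPM in GH. The groups did not overlap, PBS replicate 6 was again lowest and GH replicate 6 highest, and the next GH library was at 339 CPM. The means were 22.6 ± 10.2 and 759 ± 1159 CPM, with a log2 fold change of 5.07 ± 0.89 (adjusted p = 0.0110; interval 3.09 to 7.05). Without GH replicate 6 the value was 3.66 ± 0.34 (adjusted p = 0.000321), a fold of 12.7, and the fold of the group medians over all libraries was 13.3. Of all genes tested, 1 (A2m) had a larger fitted increase than Saa2.

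**Figure D1:**
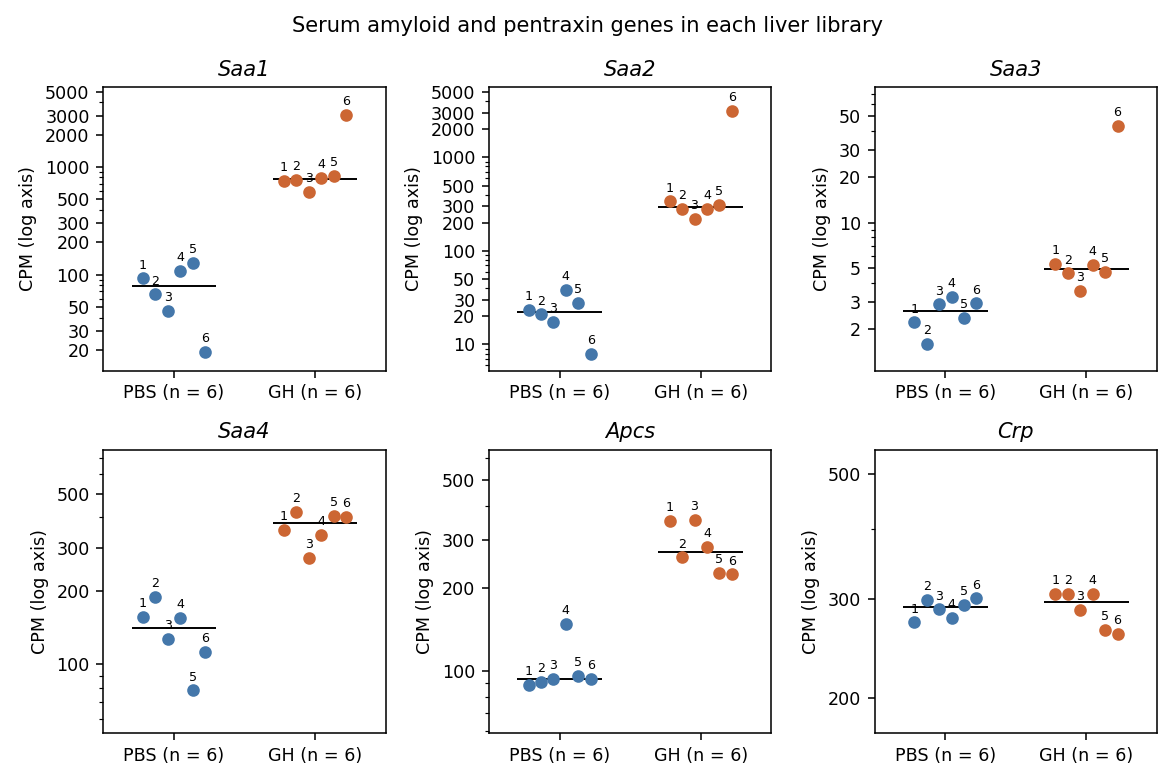
CPM of each gene (log axes, 1 panel per gene) in the 6 PBS and 6 GH libraries, numbered by replicate, with the group median as a line. GH replicate 6 stands apart for Saa1, Saa2 and Saa3, at 3056, 3125 and 43.0 CPM, while Saa4, Apcs and Crp show no such gap in GH.

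The 2 mRNAs are near copies, 87.3% identical over 655 aligned columns, so reads could be assigned to either gene and each count is uncertain on its own. No stretch of 125 bases, the length of 1 read, in either mRNA occurs unchanged in an annotated transcript of the other gene, and the longest shared run was 99 bases. Added together, Saa1 and Saa2 ranged from 27.2 through 102 to 157 CPM in PBS and from 811 through 1076 to 6181 CPM in GH. The sum does not depend on how reads were divided between the pair, and its groups did not overlap. As a share of all counts it was 0.00273 to 0.0159% in PBS, 0.0802 to 0.110% in GH replicates 1 to 5 and 0.609% in GH replicate 6.

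**Figure D2:**
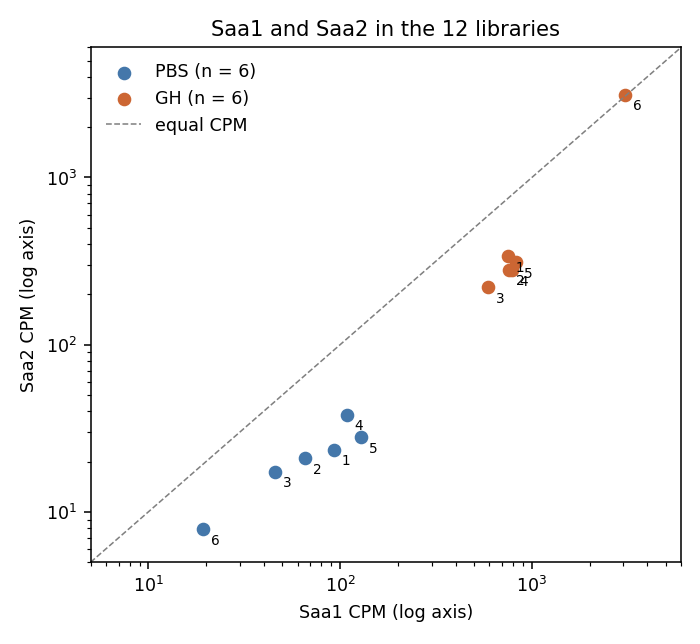
Saa2 CPM against Saa1 CPM in each library (log axes), PBS and GH in separate colours with replicate numbers, and a dashed line of equal CPM. All libraries but GH replicate 6 lie below the line, and GH replicate 6 lies just above it, at 3056 and 3125 CPM.

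The balance between the pair did not pass as different between the groups. Saa1 made up 71.1 to 82.1% of the sum in PBS, 68.8 to 73.8% in GH replicates 1 to 5 and 49.4% in GH replicate 6. The log2 ratio of Saa1 to Saa2 was 1.67 ± 0.35 in PBS and 1.14 ± 0.59 in GH, a difference of -0.53 (two-sided exact permutation test, p = 0.0606; adjusted over 4 ratios 0.0606). The groups overlapped, and GH replicate 6, at -0.03, was the only library in which the 2 genes had nearly equal counts. The difference was -0.29 without GH replicate 6 (adjusted p = 0.139, exact permutation) and passed at -0.60 without PBS replicate 6 (adjusted p = 0.0368, exact permutation).

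Saa3 encodes a serum amyloid that is made largely by macrophages and fat cells, in addition to inflamed liver. It ranged from 1.60 through 2.63 to 3.26 CPM in PBS and from 3.56 through 4.99 to 43.0 CPM in GH. The groups did not overlap, but the gap between the highest PBS and the lowest GH library was narrow, and GH replicate 6 was far above the next GH library at 5.34 CPM. The log2 fold change was 2.13 ± 0.71 and did not pass (adjusted p = 0.131; interval 0.56 to 3.70). Without GH replicate 6 Saa3 passed at 0.88 ± 0.18 (adjusted p = 0.00751), a fold of 1.85, so the size and the call both turned on that library. Macrophage markers summed to 229 to 334 CPM in PBS, 234 to 297 CPM in GH and 292 CPM in GH replicate 6, and 0 of 7 tested passed by edgeR, by DESeq2 or at an unadjusted p of 0.05. Adipocyte markers summed to 6.06 to 8.93 CPM in PBS and 5.36 to 8.17 CPM in GH, with GH replicate 6 the highest GH library. Most of that sum was Fabp4, at 7.95 CPM in GH replicate 6. In the same library Adipoq was at 0.220 CPM, against a GH mean of 0.256 CPM, and Plin1, Cfd and Retn were at 0. The part of these cells in the Saa3 difference was not tested.

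Saa4 encodes the constitutive serum amyloid, which is a normal component of HDL. It ranged from 78.3 through 141 to 189 CPM in PBS and from 274 through 379 to 420 CPM in GH. All GH libraries were above all PBS libraries, and GH replicate 6, at 402 CPM, lay among the other GH values. The means were 136 ± 39.0 and 366 ± 54.8 CPM, a log2 fold change of 1.42 ± 0.18 (adjusted p = 0.000924; interval 1.03 to 1.82). Without GH replicate 6 it was 1.40 ± 0.20 (adjusted p = 0.00227).

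Saa1 rose relative to Saa4 and to Saa3 within the same libraries. The log2 ratio of Saa1 to Saa4 went from -1.01 ± 1.10 in PBS to 1.37 ± 0.77 in GH, a difference of 2.38 (two-sided exact permutation test, p = 0.00216, the smallest that 924 assignments can give; adjusted 0.00289). The log2 ratio of Saa1 to Saa3 went from 4.70 ± 1.15 to 7.11 ± 0.48, a difference of 2.41 (exact permutation p = 0.00216; adjusted 0.00289). In both ratios every GH library lay above every PBS library. Without GH replicate 6 the difference was 2.07 for Saa1 to Saa4 (adjusted p = 0.00577, exact permutation). For Saa1 to Saa3 it was 2.60 (adjusted p = 0.00433, exact permutation). GH replicate 6 had the highest ratio of Saa1 to Saa4, 2.93 against 0.85 to 1.21 in the other GH libraries, but the lowest GH ratio of Saa1 to Saa3, 6.15 against 7.12 to 7.44.

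Apcs encodes serum amyloid P, which coats amyloid fibrils and nuclear debris. It ranged from 88.5 through 93.4 to 149 CPM in PBS and from 225 through 271 to 357 CPM in GH. PBS replicate 4 held the value of 149 CPM, the other PBS libraries were at most 95.9 CPM, and the groups did not overlap. The means were 102 ± 23.1 and 284 ± 58.7 CPM, a log2 fold change of 1.48 ± 0.15 (adjusted p = 0.000117; interval 1.15 to 1.81). GH replicate 6, the highest library for Saa1 to Saa3, was the lowest of the 6 GH libraries for Apcs, at 225 CPM.

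Crp encodes C-reactive protein. It ranged from 273 through 290 to 301 CPM in PBS and from 260 through 297 to 306 CPM in GH. The groups overlapped and 3 of 6 GH libraries were above the PBS mean, with GH replicate 6 the lowest of all 12. The means were 289 ± 11.2 and 288 ± 21.6 CPM, and the log2 fold change was -0.00064 ± 0.07 (adjusted p = 0.997). The 95% interval of -0.14 to 0.14 bounds the change that these libraries allow. Within libraries the 2 pentraxin genes changed relative to each other, as the log2 ratio of Apcs to Crp went from -1.53 ± 0.31 to -0.04 ± 0.24, a difference of 1.48 (two-sided exact permutation test, p = 0.00216; adjusted 0.00289), with no overlap.

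**Figure D3:**
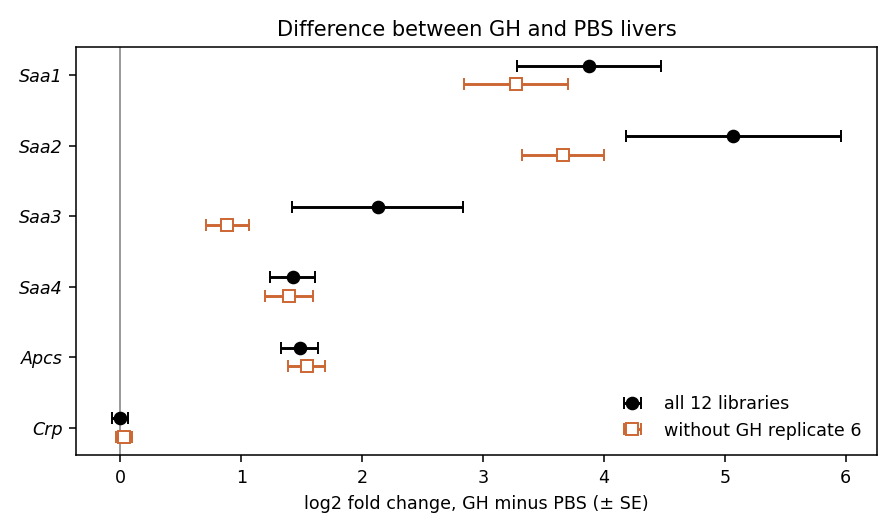
Fitted log2 fold change (GH minus PBS) with its SE for each gene, from all 12 libraries (circles) and without GH replicate 6 (squares). Leaving that library out moves Saa2 from 5.07 to 3.66 and Saa3 from 2.13 to 0.88, and Apcs from 1.48 to 1.54.

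The genes also differed in how much they varied within a group. Across the PBS livers the coefficient of variation was 53.2% for Saa1, 45.0% for Saa2, 28.6% for Saa4, 23.9% for Saa3, 22.7% for Apcs and 3.89% for Crp. The highest PBS library was 6.66 times the lowest for Saa1 and 1.10 times for Crp. In GH replicates 1 to 5 the coefficient for Saa1 was 12.2% and for Saa2 15.5%. With GH replicate 6 included these became 84.1 and 153%.

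Levels between the genes were compared per kilobase of mRNA (the longest consensus coding transcript). In PBS the order of the medians was Crp at 171, Saa1 at 130, Apcs at 96.2, Saa4 at 67.5, Saa2 at 34.1 and Saa3 at 4.75 CPM per kb. The ranges of Crp and Saa1, Saa1 and Apcs, and Saa4 and Saa2 overlapped in PBS. The wide range of Saa1 in PBS (31.7 to 211) also overlapped those of Saa4 (37.4 to 90.4) and Saa2 (12.1 to 58.5). In GH the order was Saa1 at 1268, Saa2 at 455, Apcs at 280, Saa4 at 181, Crp at 175 and Saa3 at 8.99 CPM per kb. Saa4 (131 to 201) and Crp (153 to 181) were not separated there, and the ranges of Saa1 (970 to 5018) and Saa2 (338 to 4793) overlapped through GH replicate 6. The lower part of the Saa2 range also overlapped that of Apcs (232 to 367). Among 14000 tested genes with a length, Saa1 moved from rank 529 to rank 59 and Saa2 from 1578 to 133 in the group medians per kb, while Crp went from 403 to 397. The order depends on the length used: per kb of all annotated exonic sequence, which includes retained introns, Apcs (96.2) and not Crp (84.3) led in PBS. In GH Saa1 (312) still led by that length, but Saa2 (118) lay below Apcs (280) and Saa4 (181).

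**Figure D4:**
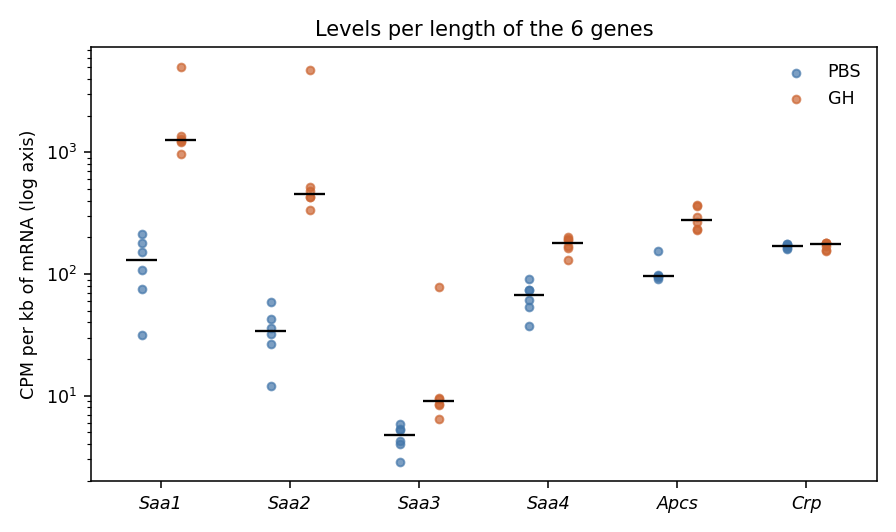
CPM per kilobase of mRNA (log axis) of the 6 genes in each PBS and GH library, with group medians as lines. Saa1 and Saa2 go from medians of 130 and 34.1 in PBS to 1268 and 455 in GH, and Crp stays at 171 and 175.

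Other acute phase proteins of the liver were examined from a list of 31 genes, all tested. Of these 5 passed as higher, 2 as lower and 24 did not pass, with a median log2 fold change of 0.14 against 0.00054 over all genes tested. Of all genes tested 2.27% passed as higher and 4.79% in either direction. Without GH replicate 6, 5 passed as higher and 3 as lower, with a median of 0.04, where 5.56% of all genes passed in either direction. A2m, a protease inhibitor, rose from 0.213 ± 0.176 to 7.87 ± 2.17 CPM (log2 fold change 5.20 ± 0.36; adjusted p = 6.98e-06). Orm1, an orosomucoid, rose from 570 ± 98.2 to 986 ± 69.1 CPM (adjusted p = 0.000333). Orm1, Orm2 and Orm3 are near copies, so their separate counts are uncertain, and Orm3 fell from 4.53 ± 1.95 to 1.72 ± 0.501 CPM (adjusted p = 0.0146). Serpina3m, a serpin with close relatives, rose by 0.78 on the log2 scale (adjusted p = 0.000840). The haem and haemoglobin scavengers Hpx (0.72; adjusted p = 0.0313) and Hp (0.53; adjusted p = 0.0279) rose by less. Serpina6, which encodes the corticosteroid-binding globulin of plasma, fell by 1.17 on the log2 scale (adjusted p = 0.0203). Lcn2 went from 26.9 ± 11.3 to 108 ± 128 CPM and did not pass (adjusted p = 0.110), and neither did Orm2, Lbp or Hamp (adjusted p = 0.205, 0.245 and 0.781).

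GH replicate 6 differed from the other libraries across this list. It was the highest of all 12 libraries for 19 of the 31 genes, or 61.3%, against 10.6% of all genes tested. Lcn2 was 368 CPM in that library and 37.7 to 68.8 CPM in the other GH libraries, and Hp was 5967 CPM against 3220 to 3960 CPM. It was the lowest of all 12 for 2 of the 31, or 6.45%, against 10.7% of all genes tested, so this count was below the usual share. The 2 were Ttr and Alb. Serpina6, which was lower in GH as a group, was at 126 CPM in GH replicate 6, against 47.6 to 56.8 CPM in the other GH libraries. Rbp4 was at 1297 CPM there, against a GH mean of 1330 CPM. Neutrophil markers summed to 1.76 CPM in GH replicate 6 and to 0.753 to 3.29 CPM in PBS. What set this animal or library apart was not tested.

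**Figure D5:**
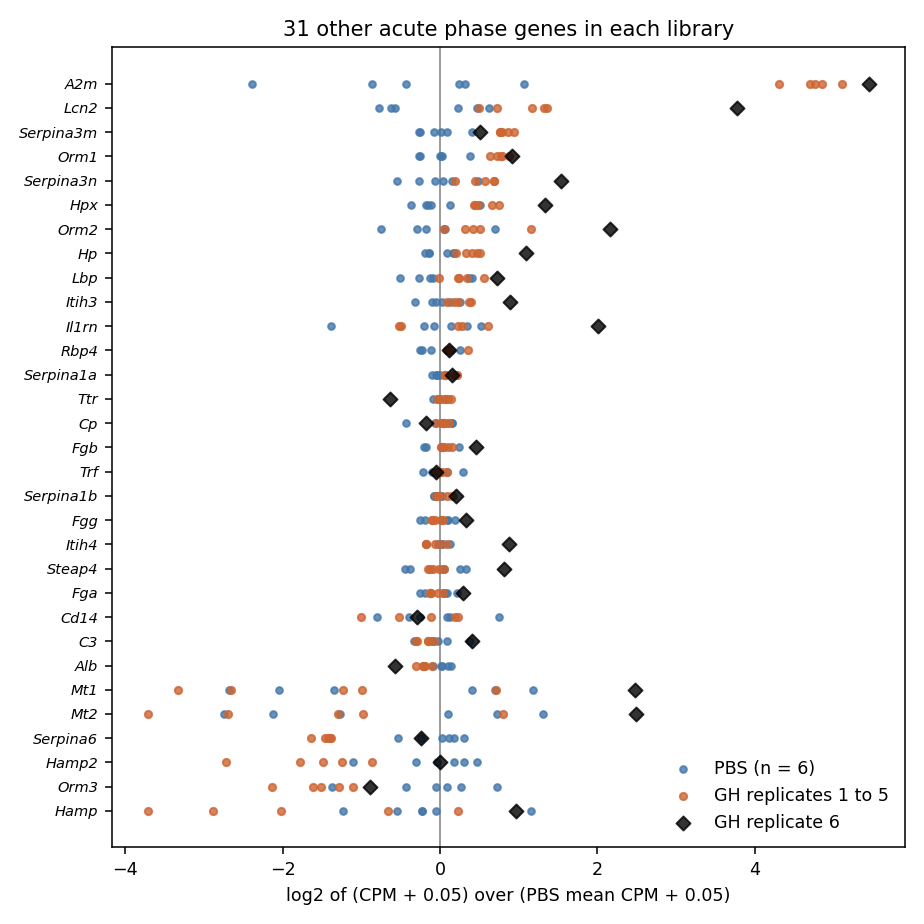
Log2 of CPM (plus 0.05) over the PBS mean (plus 0.05) for the 31 other acute phase genes, 1 row per gene, with PBS, GH replicates 1 to 5 and GH replicate 6 marked separately. GH replicate 6 is the highest of the 12 libraries in 19 of the 31 rows, and A2m is higher in all GH libraries than in any PBS library.

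Regulators upstream of these genes were examined from fixed lists, where 4.79% of all genes tested passed. The share of all genes with an unadjusted p under 0.05 was not counted. Of 20 tested genes of the IL-6 receptor and STAT3 list 1 passed as higher and 1 as lower (median log2 fold change 0.04), and without GH replicate 6 these were 0 and 1 (4 of 20 had an unadjusted p under 0.05 with all libraries). The lower one, Onecut1, a hepatocyte transcription factor, fell from 20.4 ± 12.0 to 1.67 ± 0.360 CPM (adjusted p = 0.00167), and Pias3, an inhibitor of STAT3, rose by 0.63 on the log2 scale (adjusted p = 0.0492; 0.0690 without GH replicate 6). Stat3 itself (0.07; adjusted p = 0.807), its feedback inhibitor Socs3 (-0.47; 0.774) and the receptor genes Il6ra (0.29; 0.546) and Il6st (-0.09; 0.555) did not pass. Of 33 tested genes of IL-1, tumour necrosis factor and NF-kB signalling 1 passed, as higher (median 0.00), Ikbkg, a subunit of the kinase that activates NF-kB (0.32; adjusted p = 0.0197). Il1r1 (0.87; 0.223), Nfkb1 (-0.10; 0.469), Nfkbia (0.08; 0.788), Cebpb (-0.07; 0.872) and Cebpd (-0.29; 0.367) did not pass. This list again had 1 higher and 0 lower without GH replicate 6. GH replicate 6 was the highest of all 12 libraries for 5 of the 20 genes and 7 of the 33, against 10.6% of all genes tested. It was the lowest for 2 genes on each list, among them Cebpb, Cebpd and Nfkbia, against 10.7% of all genes tested. Livers were labelled ZT02, an injection time, and short-lived transcripts of these pathways were measured at that single time.

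Of 8 glucocorticoid receptor genes and targets 0 passed by edgeR's test (median 0.08), and 0 passed by it without GH replicate 6. With all libraries, 1 had an unadjusted p under 0.05. DESeq2 called 1, Dusp1, as higher, where it called 506 of 14668 genes as higher. The unadjusted cut was counted within the lists alone, here and for the next list. Over all libraries Nr3c1, the receptor, was at 0.04 (adjusted p = 0.877). Of 24 tested genes of HDL proteins and partners of these proteins 1 passed (median -0.13), the complement gene C4b, from 1161 ± 116 to 1505 ± 219 CPM (adjusted p = 0.0340), and 7 of the 24 had an unadjusted p under 0.05. When GH replicate 6 was left out, 1 passed as higher and 1 as lower, the lower being Apoc1, an HDL apolipoprotein (-0.31; adjusted p = 0.0297), which DESeq2 also called lower with all libraries. Apoa1, the main HDL protein that serum amyloid A displaces, was at 0.21 and did not pass (adjusted p = 0.191). Of 6 other pentraxin domain genes 2 were tested (median 0.14) and 0 passed by edgeR, by DESeq2 or at an unadjusted p of 0.05. Ptx3, the long pentraxin, was at most 0.0473 CPM in any library and was not tested.

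No other tested gene within 100 kb of the 6 genes passed by edgeR's test. Around the serum amyloid cluster 6 other tested genes did not pass (log2 fold changes of -0.27 to 0.21; lowest adjusted p = 0.140). Near Apcs and Crp 2 others did not pass (-0.32 and -0.22; lowest adjusted p = 0.169).

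The genes whose levels most resembled those of Saa1 and Saa2 within the groups were ranked by the correlation of log2 CPM after each group's mean was removed, over 12 libraries that share depth and scaling. For Saa1 the 5 highest were Syt12 (Pearson r = 0.97, Spearman rho = 0.97), Siglec1 (0.93 and 0.90), Saa2 (0.91 and 0.87), Cyb561 (0.89 and 0.87) and Ccdc126 (0.89 and 0.84). Without GH replicate 6 Saa2 was at r = 0.95 and A2m entered the 5 at 0.93. For Saa2 they were Serpina10, Syt12, Orm2, Saa1 and Itih4 (r of 0.91 to 0.94), and without GH replicate 6 A2m led at 0.97. A2m was at 0 to 0.502 CPM in PBS, so its correlations rest in part on values near the floor. Syt12 (0.342 to 1.93 CPM) and Ccdc126 (1.03 to 2.20 CPM) were low in all 12 libraries, so their correlations rest on low counts too. Among the 6 genes themselves, Saa1 correlated with Saa3 at r = 0.57 (-0.12 without GH replicate 6), with Saa4 at 0.14 (0.06), with Apcs at -0.11 (0.18) and with Crp at -0.57 (-0.32). The Pearson values with Saa3 and Apcs thus changed sign with that library. Spearman rho changed sign with Saa3 (0.35, and -0.09 without GH replicate 6) but not with Apcs (-0.32 and -0.009). For Apcs the 5 highest were Txnl1, Spcs1, Copb2, Serp1 and Lyplal1 (r of 0.90 to 0.94).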

How the data were processed

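Total RNA of 12 livers was sequenced after depletion of ribosomal RNA with a stranded kit, from 250 ng of RNA and with 12 amplification cycles, per the labels' protocols. The authors deposited raw counts of exonic reads per gene, without normalization. The submitters' processing notes name STAR 2.4.0i and mm10. The counting program, annotation, strand setting and handling of multiple matches were not given in the sources used here, nor whether 50 µg is per injection or per day. If reads with several matches were dropped, Saa1 and Saa2 would be undercounted.

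These counts were tested with edgeR 4.0.16 in R 4.3.3: filterByExpr (minimum count 10), TMM scaling, a robust quasi-likelihood fit on group with all 12 libraries, a two-sided F test and Benjamini-Hochberg adjustment over 14235 genes, threshold 0.05. Unless another test is named, adjusted p-values come from this one, and SE is the absolute log2 fold change over the square root of F. The fit was tested on simulated data. Ratios of 2 genes used log2 counts plus 0.5 and exact permutation tests, adjusted over 4 ratios. Coordinates and mRNA lengths are from GENCODE M21, to which 36308 identifiers matched. Promoters are from RefSeq's table, in which all 6 genes were found. DESeq2 1.42.0, other filters and scalings, a replicate block and leaving out libraries were alternatives.

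The genes, lists, tests and alternatives were chosen with earlier results of these data known. Named were the 6 genes, the genes of each list that passed (up to 5 of the smallest p), a fixed set of regulators and acute phase genes, the 5 most alike genes of Saa1, Saa2 and Apcs, and any neighbour within 100 kb that passed. Markers of 10 cell types (hepatocyte, macrophage, neutrophil, monocyte, T and NK cell, B cell, endothelium, stellate cell, cholangiocyte and adipocyte) were on fixed lists. The labels give no batch. Counting error is small at these depths except for the lowest genes, such as Saa3 in PBS (34 to 69 counts).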

Additional observations from a re-analysis of the deposited data

Results flagged for a closer look

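Among groups of 6 libraries, 102 were examined for a lowest or highest library whose gap to its neighbour exceeds 0.625 of the group's range. Of the 102, 23 had such a gap, and 15 of the 23 were at GH replicate 6. Chance gives it in about 1 in 20 for independent normal values, which these are not. They share libraries and genes, and some genes were chosen for passing or for likeness to Saa1, Saa2 or Apcs. The count is therefore no measure against chance. Among the serum amyloids the gap was 0.904 of the range for Saa1, 0.959 for Saa2 and 0.955 for Saa3, all with GH replicate 6 highest. The same library was apart in the ratios of Saa1 to Saa2 (0.769), Saa1 to Saa3 (0.750) and Saa1 to Saa4 (0.825).

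Acute phase and related genes with GH replicate 6 highest were Lcn2 (0.906; 368 CPM), Serpina6 (0.882; 126 CPM), C4b (0.820; 1946 CPM), Itih4 (0.815; 4323 CPM), Hp (0.731; 5967 CPM), Stat3 (0.658; 218 CPM) and Orm2 (0.654; 64.0 CPM). Serpina6 fell in GH as a group, and GH replicate 6 was its highest GH library. Syt12 (0.853; 1.93 CPM) and Serpina10 (0.739; 245 CPM), chosen for their likeness to Saa1 and Saa2, stood apart there too.

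PBS replicate 4 was highest for Apcs (0.877; 149 CPM), for the ratio of Apcs to Crp (0.871; log2 ratio -0.90) and for Txnl1 (0.725), Spcs1 (0.712) and Sep15 (0.663), which were chosen for their likeness to Apcs. Hamp in PBS stood apart at replicate 5 (0.701; 716 CPM), and Serpina10 in PBS at replicate 6 (0.628; lowest, 134 CPM). Ptx3 in PBS was detected in replicate 2 alone (1.0), at 0.0469 CPM, which is 1 count.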

How the results depend on the processing

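The call on Saa4 and Apcs held under every alternative run, and that on Saa1 and Saa2 under all that gave a p but the replicate block; the cause was not tested. The replicate block, in which same-numbered libraries share a term, gave Saa1 3.66 (adjusted p = 0.0704) and Saa2 4.08 (0.0875), over alternatives ranging from 4.73e-11 to 0.0704 and from 0.000321 to 0.0875. The labels do not say whether the numbers pair samples. Same-numbered libraries correlated from -0.17 to 0.15 after each group's mean was removed, with 2 of 6 over 0.1. In each group 1 of 6 libraries correlated best with its own number. So few correlations cannot exclude a shared cage or day. The block left 391 genes changed against 682, leaving out both GH replicate 6 and PBS replicate 5 gave 1022, DESeq2 gave 1057 and no p for Saa2 and Saa3, and leaving out 1 library gave 434 (without GH replicate 2; 447 without GH replicate 1) to 854. With library totals in place of TMM, 24.3% of calls were higher in GH against 47.4%, and the median of all genes moved by -0.06. Saa3 passed at 0.88 without GH replicate 6 and at 0.86 (adjusted p = 0.0109) without it and PBS replicate 5, with 1 library left out giving 0.88 to 2.31. Crp, at 0.029 without those 2, changed sign in 6 of 12 fits with 1 library left out (-0.019 to 0.027) and never passed. The ratio of Saa1 to Saa2 ranged from -0.60 (without PBS replicate 6, adjusted p = 0.0368, exact permutation) to -0.29, and was -0.19 without GH replicate 6 and PBS replicate 5. Leaving out 1 library in turn gave Saa1 3.27 to 4.08, Saa2 3.66 to 5.28, Saa4 1.30 to 1.54 and Apcs 1.41 to 1.62. Counts were low for Saa3 in PBS and for Ptx3, and the call on Saa3 turned on GH replicate 6.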
